A study of Mus musculus with 12 samples.

Results

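The genes described here drive DNA replication and mitosis. They were 48 listed genes, 28 for S phase and 20 for mitosis, each read by its brightest probe set annotated to exactly 1 gene. Of these, 42 were measured, 25 for S phase and 17 for mitosis, out of 18820 genes on the array. No probe set was assigned to Ccnb1, and Gins2, Rfc4, Ccne2, Kif20a and Nusap1 were read only by probe sets that also read another gene. These 6 genes have no value here. All 42 measured members were above the 25th percentile of gene means, a log2 signal of 3.22, and their means over 12 arrays ran from 4.36 for Orc1 to 9.29 for Ccnb2.

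RNA of the proximal jejunum was measured on 12 Affymetrix arrays, 3 for each of 4 groups of mice. The untreated wild type group held C57BL6/J mice labelled as healthy and without treatment. The treated wild type group held C57BL6/J mice given intraperitoneal methotrexate at 40 mg/kg per day for 4 days and killed on day 7. The untreated and the treated knockout groups held B6.129-Tlr2tm1Kir/J mice, labelled as knockout for toll-like receptor 2 with no cell type named for the deletion, under the same conditions. No injection or day is recorded for the untreated mice, and every array is labelled as a biological replicate. The genotype is taken from the labels.

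Cells that divide pass from G1 into S phase when cyclin-dependent kinases release E2F factors, which then raise the genes that load and run the replication helicase. The genes for mitosis follow later in the cycle, through CCAAT boxes and cell cycle homology elements bound by NF-Y and the B-MYB, FOXM1 and DREAM complexes. In the small intestine the dividing epithelial cells sit in the crypts, and the villus cells they give rise to do not divide. Methotrexate blocks dihydrofolate reductase and so the supply of thymidylate for DNA synthesis, and crypt cells are among the cells it harms most. In bulk tissue, more dividing cells and more RNA per dividing cell cannot be told apart.

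These 4 promoters are shown as examples of the letters searched, 2 from S-phase members and 2 from mitotic members. RefSeq sequences on GRCm38.p6 were matched for 36 of the 42 members, and the 250 bases before the annotated start were read. Aurkb, Ccna2, Gins1, Mcm4, Pole and Tpx2 were not matched. Capitals mark CCAAT on either strand (ATTGG on the other), the cell cycle homology letters TTTGAA or TTTAAA, and the E2F letters TTTCCCGC, TTTGGCGC, TTTGCCGC or TTTCGCGC, again on either strand. In Mcm5, a subunit of the replication helicase (chr8:75109259-75109508, plus strand), an E2F match on each strand overlaps the other. Mcm3, the helicase subunit with the largest change in knockout mice, is at chr1:20820313-20820562, minus strand. Its window held 3 CCAAT matches and no E2F or cell cycle homology match. Cdk1, the kinase that starts mitosis, is at chr10:69352913-69353162, minus strand, and Mki67, which codes for the proliferation marker Ki-67, is at chr7:135716380-135716629, minus strand.
Mcm5: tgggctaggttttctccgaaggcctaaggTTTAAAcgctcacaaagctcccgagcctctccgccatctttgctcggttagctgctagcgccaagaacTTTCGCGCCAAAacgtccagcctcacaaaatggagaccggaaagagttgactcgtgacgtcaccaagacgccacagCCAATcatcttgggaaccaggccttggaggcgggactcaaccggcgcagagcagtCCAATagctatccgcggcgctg
Mcm3: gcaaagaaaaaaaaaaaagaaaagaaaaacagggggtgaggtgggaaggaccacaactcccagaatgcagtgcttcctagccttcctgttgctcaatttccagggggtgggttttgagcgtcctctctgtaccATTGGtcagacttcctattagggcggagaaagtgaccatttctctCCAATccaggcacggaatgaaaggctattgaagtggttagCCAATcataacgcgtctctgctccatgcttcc
Cdk1: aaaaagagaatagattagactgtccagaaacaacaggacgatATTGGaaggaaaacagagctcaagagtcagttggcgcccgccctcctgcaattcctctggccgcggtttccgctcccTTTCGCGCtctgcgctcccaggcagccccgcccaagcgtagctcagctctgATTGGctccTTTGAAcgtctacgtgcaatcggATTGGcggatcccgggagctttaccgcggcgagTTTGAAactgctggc
Mki67: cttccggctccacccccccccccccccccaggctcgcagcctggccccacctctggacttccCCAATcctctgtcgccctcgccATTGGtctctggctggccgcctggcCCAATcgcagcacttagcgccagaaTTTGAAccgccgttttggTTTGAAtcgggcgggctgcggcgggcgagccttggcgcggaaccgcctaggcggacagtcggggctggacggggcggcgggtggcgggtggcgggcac

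The CCAAT letters stood in the promoters of 27 of 36 members, or 75%, against 37.5% of 27025 genes with a promoter entry of the same length. By class they stood in 14 of 22 S-phase members and 13 of 14 mitotic members. The E2F letters stood in 8 of 36 members, 22.2% against 2.16% of all genes, and 7 of the 8 were S-phase genes. The exception was Cdk1. The cell cycle homology letters stood in 9 of 14 mitotic members, 64.3% against 28.1% of all genes, and in 5 of 22 S-phase members, or 22.7%. These are matches of letters and not sites shown to be bound.

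Array medians over all probe sets lay between 4.37 and 4.56, and arrays of 1 group correlated at 0.967 to 0.992. The centring used below removed each array's median over the genes tested, and those medians differed more between arrays. It moved the mean of the 42 members from 6.30 to 6.55 in replicate 1 of the untreated wild type. In replicate 2 of the treated knockout it moved that mean from 6.81 to 6.61. The mean of 10 pancreatic acinar genes was 12.07 to 12.61 in 7 arrays and 3.95 to 5.42 in the other 5. The 7 were replicates 2 and 3 of both untreated groups and of the treated knockout, and replicate 2 of the treated wild type. The enterocyte list, which marks the tissue's main absorptive cells, had a mean of 11.01 to 11.50 in 9 arrays and of 5.55, 6.85 and 7.90 in replicates 1, 2 and 3 of the treated knockout. All 13 of its genes were lower after methotrexate in knockout mice. The pan-epithelial list was at 9.19 to 9.49 in those 3 arrays and at 9.87 to 10.29 in the other 9. Of its 12 genes, 9 fell and 1 rose in knockout mice, with a median change of -0.73.

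The first question was whether the replication and mitosis genes differed after methotrexate in wild type mice. Their level was higher in every mean, but no member passed the test. The mean over the 42 members was 6.41 ± 0.10 (SD, n = 3) in untreated and 6.86 ± 0.40 (SD, n = 3) in treated wild type. The median log2 change over the members was 0.43, and that over all genes was close to 0. All 42 estimates lay above 0, where 49.5% of all genes did, and they stayed above 0 after quantile normalisation and after centring each array on its median. They ran from 0.22 for Pola1, the catalytic subunit of DNA polymerase alpha, to 0.92 for Birc5, which codes for survivin of the chromosomal passenger complex.

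At an adjusted p under 0.05 in limma, 0 of 42 members and 0.0744% of all genes were called. At an unadjusted p under 0.05 there were 4 members, Birc5, Cenpe, Fen1 and Gins1, and 11.7% of all genes. The treated arrays all lay above the untreated ones for 19 of 42 members, against 13.5% of all genes. One array carried much of the level. Replicate 2 of the treated wild type was the highest of its group for 41 of 42 members, and for 31.4% of all genes. Without it the median change was 0.21 and 41 of 42 members stayed above 0. The exception was Aurka at -0.06. That array is also the only treated wild type array with high pancreatic genes. With a block for pancreatic RNA the median change was 0.35 and all 42 estimates stayed above 0.

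Other cell type lists differed in treated wild type mice as well. The T cell list was at 5.67, 5.15 and 5.59 in replicates 1, 2 and 3, against 6.41 to 6.69 in untreated wild type. Of its 10 genes, Cd8a, Nkg7 and Cd7 fell, with a median change of -1.24 over the list. The Paneth list (6 genes) was at 7.23, 8.60 and 7.99, against 8.89 to 9.25, and the macrophage list (9 genes) at 5.51, 6.36 and 5.95, against 6.66 to 6.70. None of the Paneth or macrophage genes was called. The part of these cells in the change of the members was not tested.

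The arrays of the treated wild type can be seen in the genes for mitosis. Mki67 read 8.14, 8.39 and 8.25 in untreated wild type and 8.46, 9.05 and 8.48 in treated wild type, in the order of replicates 1 to 3. The groups did not overlap, yet replicate 2 stood well above the other treated arrays. The change was 0.40 ± 0.30 (SE), with a 95% interval from -0.26 to 1.07 and a limma adjusted p of 0.595. Top2a, the topoisomerase that untangles chromosomes before they part, read 7.64, 7.68 and 7.66 untreated and 7.74, 8.57 and 7.86 treated. Its change was 0.40 ± 0.43 (SE), with a limma adjusted p of 0.714.

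**Figure D1:**
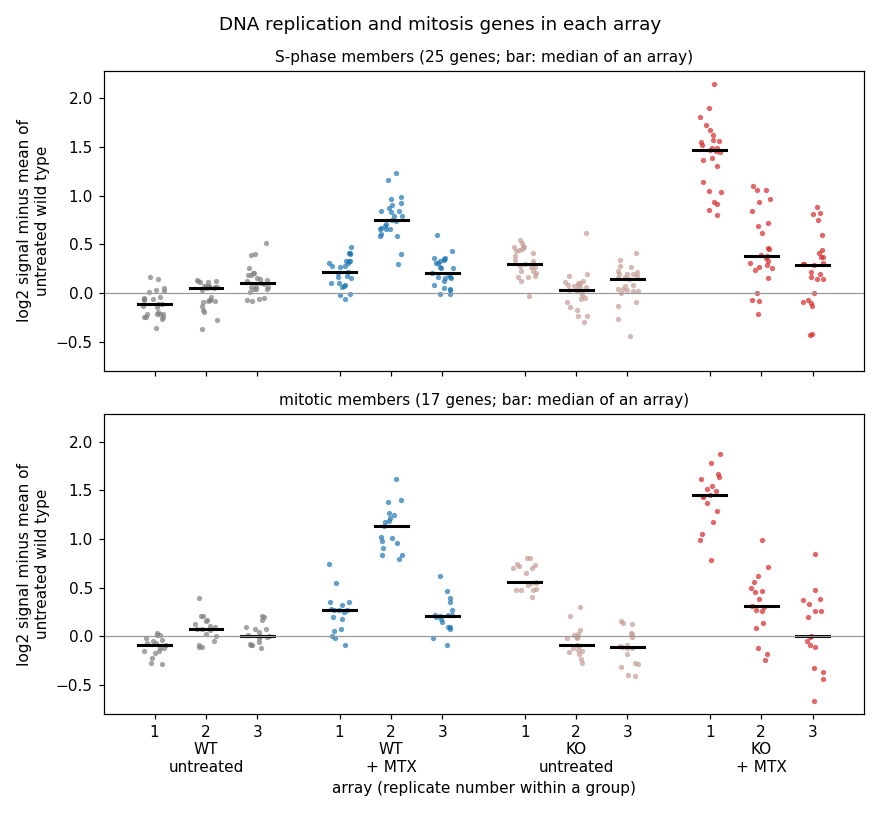
Each point is 1 gene in 1 array, as log2 signal minus the mean of that gene in untreated wild type; the x axis gives the replicate within each of 4 groups, the upper panel 25 S-phase members and the lower panel 17 mitotic members, with a bar at the median of an array. Replicate 1 of the treated knockout, replicate 2 of the treated wild type and, for the mitotic members, replicate 1 of the untreated knockout stand above the other arrays of their groups.

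The second question was whether the same genes differed after methotrexate in knockout mice. Here 8 of 42 members, 7 of 25 for S phase and 1 of 17 for mitosis, were higher and 0 lower. They were Mcm3, Mcm4, Mcm5 and Mcm7 of the replication helicase, Orc6 of the origin recognition complex, Chaf1b of the complex that places histones behind the fork, Ccne1 (cyclin E1, which drives entry into S phase), and Cdk1. In this comparison 34.8% of all genes were called and 18.8% were called higher. The 19% of members called, all of them higher, was thus below the first share and near the second. None was called lower, where 16% of all genes were. The mean over the 42 members was 6.55 ± 0.25 (SD, n = 3) in untreated and 7.07 ± 0.66 (SD, n = 3) in treated knockout.

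All 42 estimates lay above 0, against 47.8% of all genes, with 39 above 0 after quantile normalisation and 36 after centring. Centring moved the median of all genes from -0.02 to -0.19 and that of the members from 0.51 to 0.34. It also moved the calls over all genes from 3537 higher and 3012 lower to 2582 and 4339. The lowest was 0.02 for Prim1, the primase subunit. The treated arrays all lay above the untreated ones for 11 members, 26.2% of them and 23% of all genes. Beyond the 8 called, these were Mcm2, Fen1 and Lig1, which have roles in unwinding DNA, cutting flaps and sealing nicks.

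The helicase is built from Mcm2 to Mcm7, and its subunits did not have 1 value. Mcm3 read 6.30, 6.18 and 6.26 in untreated wild type and 6.19, 7.00 and 6.37 in treated wild type. In knockout mice it read 6.22, 5.95 and 5.81 untreated and 8.39, 7.18 and 7.06 treated. All 3 treated knockout arrays lay above the other 9. The change in knockout mice was 1.55 ± 0.31 (SE) on the log2 scale, a 2.93-fold difference, with a limma adjusted p of 0.00233. In wild type it was 0.27 ± 0.31 (SE), with an adjusted p of 0.736.

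Mcm4, the partner next to Mcm6 in the ring, had a like order of arrays. It read 6.59, 6.80 and 6.80 in untreated and 6.71, 7.39 and 6.78 in treated wild type. It read 6.91, 6.59 and 6.75 in untreated and 8.63, 7.70 and 7.48 in treated knockout. The 3 treated knockout arrays were again above all others, which held for 3 members (Mcm3, Mcm4 and Orc6) and for 17.2% of all genes. Its change in knockout mice was 1.19 ± 0.27 (SE), 2.28-fold, with a limma adjusted p of 0.00474. In wild type it was 0.23 ± 0.27 (SE), with an adjusted p of 0.743.

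Mcm5 read 6.86, 7.19 and 7.16 in untreated and 7.34, 7.99 and 7.26 in treated wild type. It read 7.50, 7.15 and 7.22 in untreated and 8.74, 7.91 and 7.67 in treated knockout. In both genotypes the treated arrays lay above the untreated ones. The change was 0.46 ± 0.27 (SE) in wild type, with a limma adjusted p of 0.508, and 0.82 ± 0.27 (SE) in knockout mice, with an adjusted p of 0.0346. Mcm7 had a change of 0.78 ± 0.26 (SE) in knockout mice, with an adjusted p of 0.0386.

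Mcm2 and Mcm6, subunits of the same ring, did not pass the test in either genotype. Mcm2 read 7.37, 7.55 and 7.53 in untreated and 7.59, 8.14 and 7.79 in treated wild type. It read 7.76, 7.46 and 7.63 in untreated and 9.21, 7.87 and 7.85 in treated knockout. Replicate 1 was far above the rest there, and the change of 0.70 ± 0.30 (SE) had a limma adjusted p of 0.102. Mcm6 read 6.70, 7.02 and 7.45 in untreated and 7.39, 7.90 and 7.41 in treated wild type. It read 7.28, 7.16 and 7.25 in untreated and 8.52, 7.42 and 6.92 in treated knockout. Its treated knockout arrays lay on both sides of the untreated ones, and its change was 0.39 with a 95% interval from -0.35 to 1.12.

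**Figure D2:**
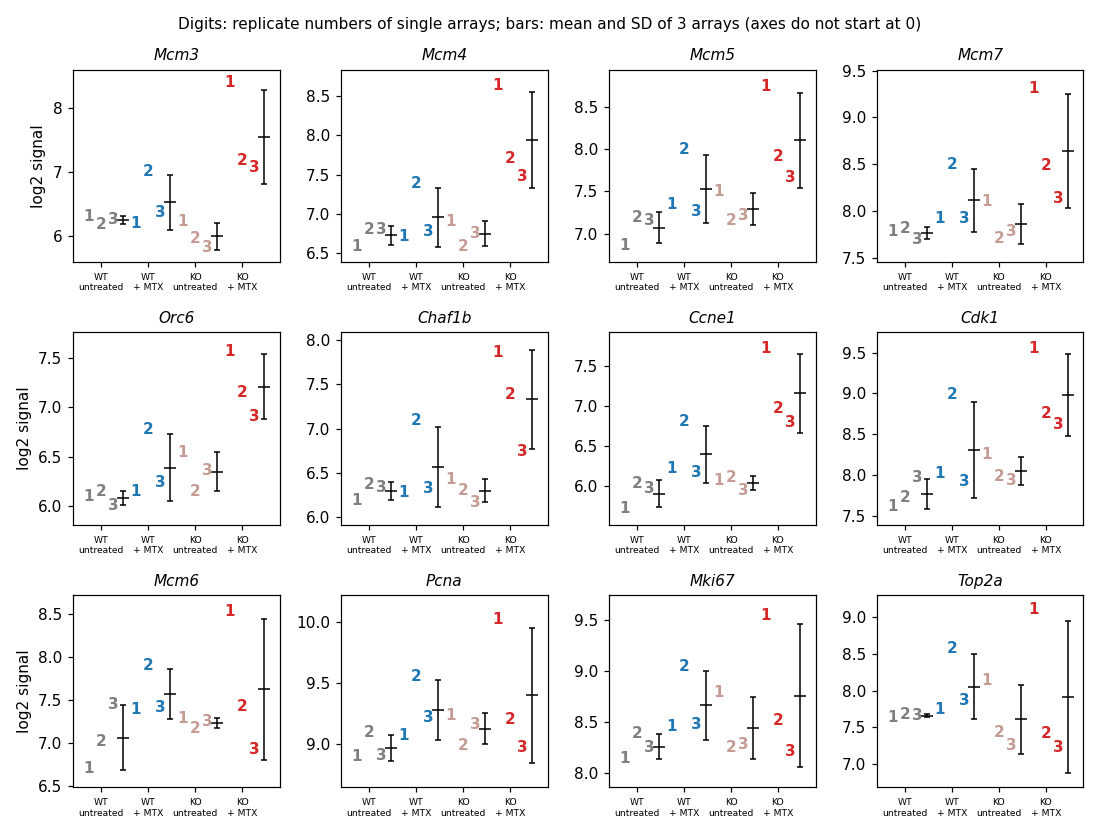
Log2 signal of 12 genes in each array, with a panel per gene, the replicate numbers of single arrays as digits, and the mean and SD of 3 arrays of a group as a bar. For Mcm3, Mcm4 and Orc6 all 3 treated knockout arrays are above the other 9, while for Mcm6, Pcna, Mki67 and Top2a only replicate 1 of that group is.

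Among the other genes that license and fire origins, Orc6 passed the test in knockout mice and Orc1, Cdc6, Cdt1, Mcm10, Cdc45 and Gins1 did not. Orc6 read 6.10, 6.15 and 6.01 in untreated and 6.15, 6.78 and 6.24 in treated wild type. It read 6.54, 6.15 and 6.36 in untreated and 7.56, 7.15 and 6.91 in treated knockout. It was the member with the smallest SD in the treated knockout group, 0.33. The change was 0.30 ± 0.19 (SE) in wild type and 0.86 ± 0.19 (SE) in knockout mice, with limma adjusted p of 0.542 and 0.00468. The changes of the others in knockout mice ran from 0.11 for Cdc45, part of the active helicase, to 0.66 for Orc1.

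At the fork, Chaf1b was the only called member of 10. It read 6.18, 6.37 and 6.33 in untreated and 6.28, 7.09 and 6.32 in treated wild type. It read 6.42, 6.30 and 6.16 in untreated and 7.86, 7.39 and 6.74 in treated knockout, where all treated arrays were above the untreated ones. Its change in knockout mice was 1.04 ± 0.27 (SE), with a limma adjusted p of 0.0102. Pcna, the sliding clamp of the polymerases, read 8.90, 9.09 and 8.91 in untreated and 9.07, 9.55 and 9.22 in treated wild type. It read 9.23, 8.99 and 9.16 in untreated and 10.02, 9.20 and 8.97 in treated knockout, so the latter groups overlapped. Its change was 0.31 (95% interval from -0.19 to 0.81) in wild type and 0.26 (from -0.24 to 0.77) in knockout mice, with limma adjusted p of 0.586 and 0.426. A second Pcna probe set gave almost the same values, and whether both read Pcna or a near-identical copy was not tested, so the Pcna values are uncertain.

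Of the control of S-phase entry, Ccne1 and E2f1 were measured. Ccne1 read 5.72, 6.04 and 5.97 in untreated and 6.22, 6.81 and 6.17 in treated wild type. It read 6.07, 6.11 and 5.95 in untreated and 7.72, 6.97 and 6.79 in treated knockout. The treated arrays were above the untreated ones in both genotypes. The change was 0.49 ± 0.23 (SE) in wild type and 1.11 ± 0.23 (SE) in knockout mice, with limma adjusted p of 0.441 and 0.00282. E2f1, a factor that activates S-phase genes, read 5.39, 5.66 and 5.76 in untreated and 5.78, 6.31 and 5.59 in treated wild type. It read 6.01, 5.69 and 6.01 in untreated and 6.52, 5.93 and 5.80 in treated knockout, with overlap in both genotypes. Its changes of 0.29 and 0.18 had limma adjusted p of 0.602 and 0.584.

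Of 17 mitotic members, Cdk1 was the only one called in knockout mice. It read 7.62, 7.72 and 7.97 in untreated and 8.02, 8.99 and 7.92 in treated wild type. It read 8.25, 7.98 and 7.93 in untreated and 9.55, 8.76 and 8.62 in treated knockout, without overlap. Its change in knockout mice was 0.93 ± 0.29 (SE), with a limma adjusted p of 0.029. The 4 other genes of mitotic entry, which are Ccna2, Ccnb2, Plk1 and Aurka, had changes of 0.06 for Ccnb2 to 0.79 for Plk1. None of 4 spindle and kinetochore genes (Kif11, Tpx2, Cenpe and Cenpf) and none of 6 genes of the spindle checkpoint and passenger complex (Bub1, Bub1b, Ttk, Cdc20, Aurkb and Birc5) was called in either genotype.

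The proliferation markers did not pass the test in knockout mice. Mki67 read 8.79, 8.25 and 8.28 in untreated and 9.55, 8.52 and 8.21 in treated knockout. Replicate 1 was the highest array in each group, and the groups overlapped. The change was 0.32 ± 0.30 (SE), with a 95% interval from -0.35 to 0.99 and a limma adjusted p of 0.469. Top2a read 8.14, 7.43 and 7.25 in untreated and 9.11, 7.42 and 7.22 in treated knockout. The lower arrays of each group were at nearly the same level. The change was 0.31, with a 95% interval from -0.63 to 1.26.

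**Figure D3:**
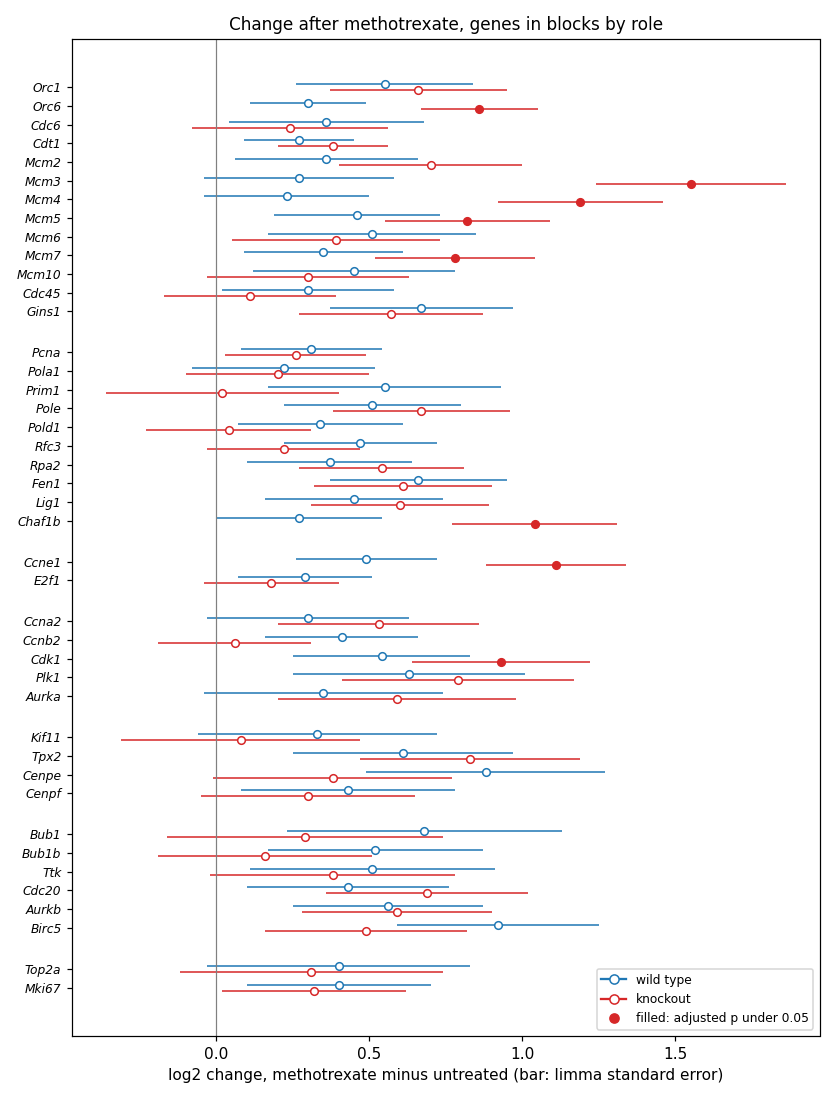
Log2 change after methotrexate for each of 42 members, in blocks by role from top to bottom, with wild type in blue, knockout in red, bars for the limma standard error and filled points for an adjusted p under 0.05. All points lie above 0, and the 8 filled points, of Orc6, Mcm3, Mcm4, Mcm5, Mcm7, Chaf1b, Ccne1 and Cdk1, are all of knockout mice.

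The spread between arrays of a group was described without a test. The median SD over the members was 0.14 in untreated wild type, 0.39 in treated wild type, 0.26 in untreated knockout and 0.66 in treated knockout. Over all genes it was 0.15, 0.14, 0.15 and 0.17. The members' median was thus close to that of all genes in untreated wild type and above it in the other 3 groups. The members were brighter, with a median log2 mean of 6.59 against 5.42 for all genes. Their spread was not set against genes of like level. The SD was largest for Top2a, 1.04 in treated knockout.

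In each of the other 3 groups the members moved together in 1 array. Replicate 1 of the treated knockout was the highest of its group for 42 of 42 members and for 38.6% of all genes. Its excess over the mean of the other treated knockout arrays had a median of 1.13 and ran from 0.53 for Orc6 to 1.79 for Top2a. Replicate 3 was the lowest for 41 of 42. Replicate 2 of the treated wild type was above the mean of its group's other arrays by a median of 0.67, with 0.58 for S-phase and 0.90 for mitotic members. Replicate 1 of the untreated knockout was the highest for 39 of 42 members and for 40.6% of all genes. Its median excess was 0.28 for S-phase and 0.65 for mitotic members. Cdc6, the helicase loader, differed, with an excess of -0.10 and -0.07 in the latter 2 arrays.

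Other lists moved with replicate 1 of the treated knockout. Its mean over 9 neutrophil genes was 6.84, against 4.47 and 4.53 in replicates 2 and 3 and 3.48 to 3.67 in the other groups. Its crypt stem cell list (9 genes) was at 7.20, against 6.44 and 6.32 in replicates 2 and 3 and 6.54 to 7.24 in the other groups. For that list replicate 1 was thus within the range of the other groups, and replicates 2 and 3 were below it. The enterocyte list of replicate 1 of the treated knockout was the lowest of all arrays. Its pancreatic acinar list was low, at 3.95. The list for B cells and Peyer patch follicles, where germinal centre cells divide, was at 4.02 in that array, at 4.92 and 4.04 in replicates 2 and 3, and highest at 5.83 in replicate 1 of the treated wild type. That last array did not stand apart in the members. Of these lists, the parts of neutrophil, crypt and enterocyte RNA in the result were not tested.

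Lists of cells in the wall also differed in the treated knockout group as a whole. All 9 macrophage and all 10 fibroblast genes rose after methotrexate in knockout mice, with means of 8.20 to 8.91 and 9.46 to 9.59 in treated knockout. In the other 3 groups these means were 5.51 to 6.70 and 7.54 to 7.90. Of 10 T cell genes 7 fell and 1 rose, with means of 4.20 to 4.57 against 5.78 to 5.87 in untreated knockout, and of 6 Paneth genes 2 rose. Of 9 crypt stem cell genes, Lgr5, Olfm4 and Rnf43 fell and Smoc2 rose in knockout mice. The median change of that list was 0.18, with 5 of 9 estimates above 0. The part of all these cells in the change of the members was not tested.

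Without replicate 1 of the treated knockout, the median change of the members in knockout mice was 0.15, and 23 of 42 estimates lay above 0. The estimates then ran from -0.52 for Prim1 to 1.13 for Mcm3. Mcm3, Mcm4, Ccne1, Orc6 and Chaf1b were still called, with limma adjusted p of 0.0016, 0.00614, 0.00461, 0.015 and 0.033. The background was then 34.3%. Cdk1, Mcm5 and Mcm7 were not called, with adjusted p of 0.1, 0.106 and 0.108. Mki67 had a change of -0.08 and Top2a of -0.28 without that array. With a block for arrays that hold pancreatic RNA, the same 8 members were called in knockout mice. In both knockout groups, however, replicate 1 was low and replicates 2 and 3 were high in pancreatic genes. The block therefore could not move these estimates, and the part of pancreatic RNA in them was not tested.

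**Figure D4:**
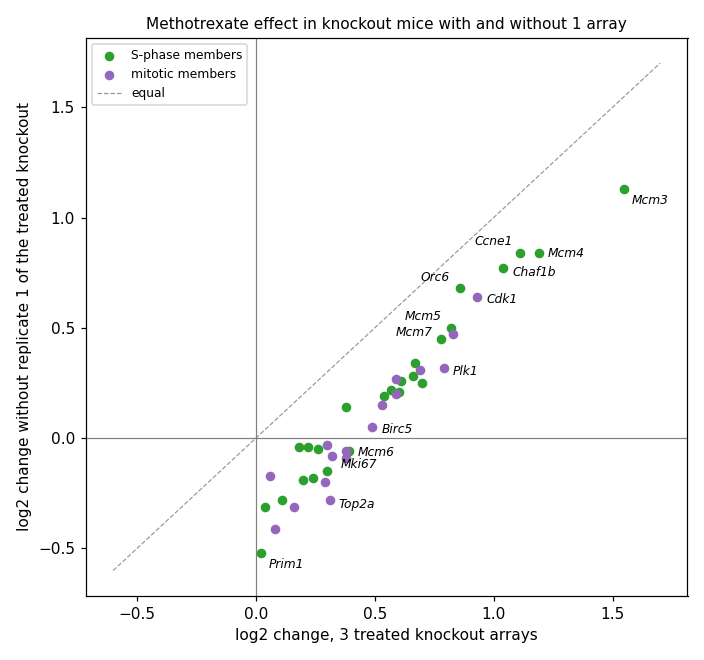
Log2 change after methotrexate in knockout mice for each of 42 members, from 3 treated arrays on the x axis and with replicate 1 of the treated knockout left out on the y axis, with S-phase members in green, mitotic members in purple and a dashed line for equal values. All points lie below the line, and those of Mcm3, Mcm4, Ccne1, Chaf1b, Orc6 and Cdk1 are the 6 above 0.5 on the y axis.

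The third question was whether the genotypes differed. In untreated mice no member was called, and 0.0106% of all genes were. At an unadjusted p under 0.05 there were 0 members in limma and 6.19% of all genes. The median difference, knockout minus wild type, was 0.14, and 39 of 42 estimates lay above 0, where 54.8% of all genes did. After centring 28 lay above 0, and with replicate 1 of the untreated knockout left out 20 did. The knockout arrays all lay above the wild type arrays for Cdc45 and Orc6, 4.76% of members and 7.47% of all genes.

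In treated mice 5 members were higher in the knockout and 0 lower, against 36.9% of all genes called and 20.2% called higher. They were Orc6 at 0.82 ± 0.19 (SE), Mcm4 at 0.98 ± 0.27, Mcm3 at 1.02 ± 0.31, Ccne1 at 0.76 ± 0.23 and Chaf1b at 0.77 ± 0.27. Their limma adjusted p were 0.00559, 0.0132, 0.023, 0.0231 and 0.0418. All are S-phase genes, which make up 25 of the 42 members. This comparison shares the treated knockout arrays with the one above, so it is no separate evidence. For Orc6, Mcm3 and Mcm4 the treated knockout arrays all lay above the treated wild type arrays, 7.14% of members and 24.2% of all genes.

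The median difference over the members in treated mice was 0.19, with 31 of 42 above 0, against 49.9% of all genes, and -0.04 with 19 above 0 after centring. Centring also moved the calls over all genes from 3793 higher and 3155 lower to 2630 and 5075. Without replicate 1 of the treated knockout it was -0.16. Orc6, Mcm3 and Mcm4 were then still higher, with adjusted p of 0.0181, 0.0434 and 0.0248. Prim1, Pold1, Bub1b and Birc5 were then called lower, at -0.80, -0.58, -0.76 and -0.64. In that fit 38.3% of all genes were called, higher or lower. The direction of the median in this comparison thus turned both with the scaling and with 1 array, and that of Orc6, Mcm3 and Mcm4 was the same with and without that array. Leaving out replicate 1 or replicate 3 of the treated wild type left 1 member called, which was Orc6. Mcm3 and Mcm4 were not called in those fits, for which the share of all genes called is not given here.

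The change after methotrexate was not shown to differ between the genotypes for any member. The interaction was called for 0 of 42 members, against 23.8% of all genes. At an unadjusted p under 0.05 there were 2 members, Mcm3 and Mcm4, and 33.3% of all genes. For Mcm3 the change was larger in knockout mice by 1.28 (95% interval from 0.31 to 2.25), with a limma adjusted p of 0.0588. For Mcm4 it was larger by 0.96 (from 0.12 to 1.79), with an adjusted p of 0.0967. For Mki67 the difference was -0.08, with an interval from -1.02 to 0.86, which leaves room for a large difference either way. The median over the members was -0.03. Mcm3 was called without replicate 1 of the treated knockout, at 0.86 with a limma adjusted p of 0.0448. There Prim1 and Birc5 were called lower, at -1.07 and -0.87, and 27.4% of all genes were called. With replicate 2 of the treated wild type left out, Orc6, Mcm3 and Mcm4 were called. The share of all genes called in that last fit is not given here.

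Other genes of the same pathways gave the setting for the members. In wild type mice 0 were called in any of 5 lists. The median changes there were 0.29 for 37 other replication genes, 0.47 for 63 other mitosis genes, 0.29 for 21 regulators of the G1/S step, -0.05 for 7 inhibitors of cyclin-dependent kinases and 0.41 for 14 genes of the S-phase checkpoint and repair. With replicate 2 of the treated wild type left out they were 0.18, 0.20, 0.21, 0.04 and 0.24.

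In knockout mice 11 of 37 other replication genes rose and 0 fell, with a median of 0.43, where 18.8% of all genes rose and 16% fell. Orc2, a further subunit of the origin recognition complex, read 5.81, 5.71 and 5.66 untreated and 7.00, 6.92 and 6.64 treated. Its treated arrays were close to each other, unlike those of most members. The change was 1.13 ± 0.14 (SE), with a limma adjusted p of 7.38e-05. Rpa1, the large subunit of the protein that coats single-stranded DNA, changed by 0.83, Gins4 of the helicase by 0.56 and the maintenance methyltransferase Dnmt1 by 0.84, with adjusted p of 0.000473, 0.00553 and 0.0126. With replicate 1 of the treated knockout left out the median was 0.18. Then 6 genes were higher, these 4 among them, and Gmnn was lower.

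Of 63 other mitosis genes, 11 rose in knockout mice and 0 fell, with a median of 0.56. Mybl2, which codes for B-MYB, read 5.64, 5.58 and 5.68 untreated and 7.95, 7.32 and 6.76 treated, a change of 1.71 with a limma adjusted p of 0.000523. Gtse1, a microtubule-binding protein, read 5.66, 4.86 and 4.60 untreated and 6.90, 7.30 and 6.74 treated, a change of 1.94 with an adjusted p of 0.000609. In Gtse1 the highest treated array was replicate 2, not replicate 1. Anln, a scaffold of the cleavage furrow, changed by 1.24 and Tacc3, a spindle protein, by 1.10. Leaving out replicate 1 of the treated knockout gave a median of 0.20, with 8 genes higher, these 4 among them, and Spc24, Spag5 and Ncapd3 lower.

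Of 21 G1/S regulators, 7 rose and 1 fell in knockout mice. Ccnd1, cyclin D1, read 8.70, 8.19 and 8.30 untreated and 10.59, 10.01 and 9.99 treated. The change was 1.80 ± 0.17 (SE), with a limma adjusted p of 1.02e-05. Ccnd3 changed by 0.93, its partner kinase Cdk6 by 0.82, and Myc, a driver of growth, by 1.11, with adjusted p of 0.00081, 8.58e-05 and 0.0143. Rb1, the retinoblastoma protein that restrains E2F, read 8.83, 8.61 and 8.42 untreated and 7.58, 7.71 and 7.19 treated, and fell by 1.12 with an adjusted p of 0.000276. The treated arrays of Ccnd1, Ccnd3, Cdk6 and Rb1 were all on 1 side of the untreated ones, and those of Myc overlapped them. Leaving out replicate 1 of the treated knockout moved the median of the list from 0.33 to 0.12. Then 5 genes were higher, without Myc and Cdk2, and 4 lower, with E2f2, Rbl1 and Cdc25a beside Rb1.

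Of 7 inhibitors of cyclin-dependent kinases, 1 rose and 2 fell in knockout mice. Cdkn2b, which codes for p15 and blocks Cdk4 and Cdk6, read 9.03, 8.35 and 8.54 untreated and 5.55, 6.28 and 6.10 treated. It fell by 2.66 on the log2 scale, with a limma adjusted p of 2.46e-06. Cdkn1c, for p57, fell by 0.59 with an adjusted p of 0.0272, and Cdkn2d, for p19, rose by 0.37 with an adjusted p of 0.0441. Cdkn1a, the p21 target of p53, had a change of -0.18 and Cdkn1b, for p27, of -0.07, with adjusted p of 0.673 and 0.654. Without replicate 1 of the treated knockout, Cdkn2b and Cdkn2d were called and Cdkn1c was not. Enterocyte genes moved with these arrays, and their part in the fall of Cdkn2b was not tested.

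Of 14 genes of the S-phase checkpoint and repair, Blm, a helicase that resolves repair intermediates, rose by 0.93 with a limma adjusted p of 0.0263 in knockout mice. The median of the list was 0.42, and 0.00 with no gene called when replicate 1 of the treated knockout was left out. Chek1, the checkpoint kinase of stalled forks, read 6.14, 5.62 and 5.90 untreated and 6.95, 6.10 and 5.57 treated. Its groups overlapped, and its change of 0.32 had an adjusted p of 0.47. In treated mice the knockout had higher levels for 4 of 37, 6 of 63, 5 of 21, 0 of 7 and 0 of 14 genes of the 5 lists, and lower levels for 1, 1, 3, 2 and 0. Over all genes 20.2% were higher and 16.8% lower. When replicate 1 of the treated knockout was left out, the counts were 3, 3, 5, 0 and 0 higher and 3, 4, 5, 2 and 2 lower. In that fit 38.3% of all genes were called in either direction. Gmnn, which holds back relicensing of origins, and Spag5, a spindle protein, were the lower genes of the first 2 lists, at -0.64 and -1.16.

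**Figure D5:**
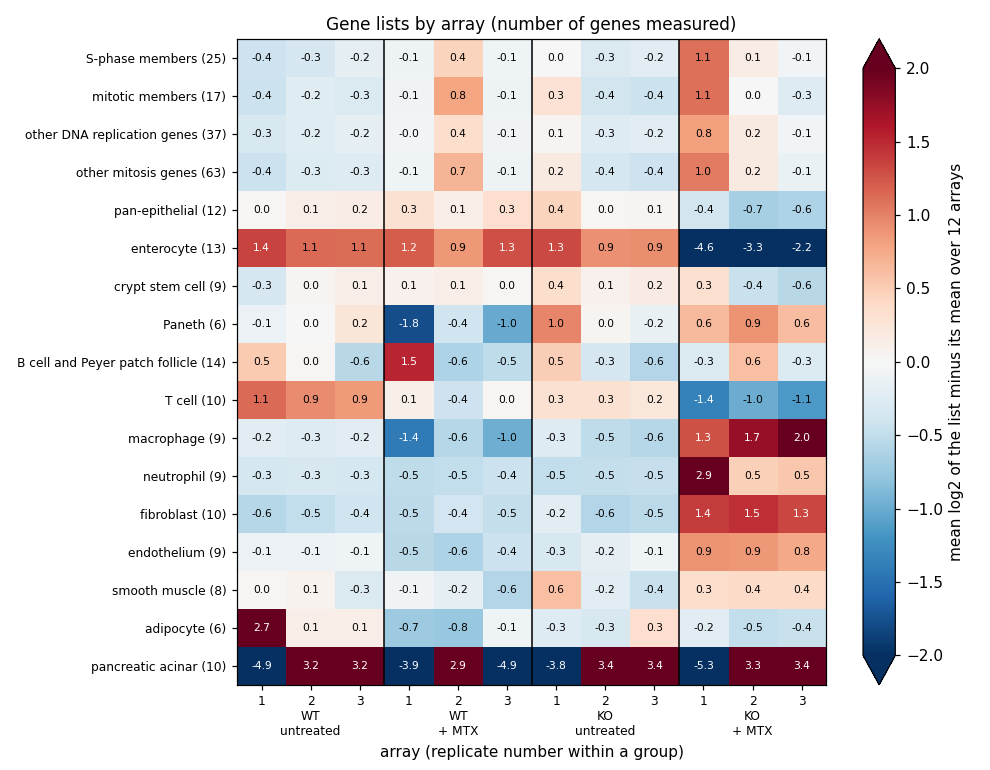
Mean log2 signal of gene lists (rows, with the number of genes measured) in each of 12 arrays (columns), minus the mean of the list over all arrays, printed in the cell and shown as colour, which is capped at 2 in both directions. The replication and mitosis lists are highest in replicate 1 of the treated knockout, where the neutrophil list is also highest and the enterocyte list lowest.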

How the data were processed

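Total RNA of mouse proximal jejunum was labelled with biotin and read on 12 Affymetrix arrays, per the labels' protocols. The deposited values are log2 probe set signals made by the authors with RMA, per the submitters' processing notes. The version is not given in the sources used here. RMA brings arrays to a common distribution, so a shift of most genes would not be seen. Of 35556 probe sets, 21218 were annotated to 1 gene symbol in GEO's platform annotation, 1881 to several and 12457 to none. The brightest probe set of 1 gene was kept for each of 18820 genes.

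One limma 3.58.1 fit (R 4.3.3) of all 12 arrays gave a mean per group, with 8 residual degrees of freedom, for 5 comparisons. P-values were adjusted by Benjamini-Hochberg over all genes, and called means an adjusted p under 0.05. The fit was tested on simulated data with independent noise for each gene and array, so not for genes that move together in 1 array. The labels do not say that a replicate number pairs mice, so numbers were not taken as pairs. Deviations correlated above 0.1 in 15 of 18 same-numbered and 12 of 36 differently numbered pairs of arrays. The same-numbered exceptions all held replicate 3 of the treated wild type, the only replicate 3 with low pancreatic genes. That array correlated at 0.58, 0.46 and 0.25 with replicate 1 of untreated wild type, untreated knockout and treated knockout, which are also low. With replicate 3 of these groups, which are high, it correlated at -0.49, -0.38 and -0.15. Every pair above 0.1 joined arrays alike in pancreatic genes. Where number and pancreatic genes parted, this measure thus went with the pancreatic genes. Whether the numbers also pair mice was not tested. The number of arrays limits the precision, and p-values measure the spread between these mice. Named with all 12 values were members called in any comparison and among the 4 smallest p of their role, and 10 genes whatever their values, of which Ccnb1 and Ccne2 have no value. Of each other list, the 4 smallest p among called genes and 6 genes whatever their values were named, of which Foxm1 has no value. Other members and genes were named after their values were seen. The members and lists were chosen with earlier results of these data known. Alternatives changed the normalisation, the filter, the probe sets, the fit and the arrays.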

Additional observations from a re-analysis of the deposited data

Results flagged for a closer look

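The change after methotrexate differed between the genotypes, by the interaction in limma over all genes, for 8 named genes of the pathway lists and for no member. In each case the value is the change in knockout mice minus the change in wild type mice on the log2 scale, and 23.8% of all genes passed the same test. Of 37 other replication genes, 2 passed above 0 and 0 below. Of 21 G1/S regulators, 3 passed above 0 and 2 below, and of 7 inhibitors of cyclin-dependent kinases, 0 and 2. None of 63 other mitosis genes or of 14 checkpoint and repair genes passed.

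Orc2 differed by 0.81, with changes of 0.32 in wild type and 1.13 in knockout mice and a limma adjusted p of 0.0116. Rpa1 differed by 0.66, with changes of 0.16 and 0.83 and an adjusted p of 0.0228. Ccnd1 differed by 1.30, with changes of 0.49 and 1.80 and an adjusted p of 0.00225. Ccnd3 differed by 0.92, with changes of 0.01 and 0.93 and an adjusted p of 0.0115. Cdk6 differed by 0.59, with changes of 0.23 and 0.82 and an adjusted p of 0.0125.

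Rb1 differed by -1.15, with changes of 0.03 and -1.12 and a limma adjusted p of 0.00385. Cdkn2b differed by -2.59, with changes of -0.07 and -2.66 and an adjusted p of 8.67e-05. Cdkn1c differed by -0.84, with changes of 0.25 and -0.59 and an adjusted p of 0.0349. In Cdkn1c every treated array also lay above the untreated mean in wild type and below it in knockout mice. Of the unnamed genes of these lists, E2f2 passed too, at -1.22, and was picked out after its values were seen. Macrophage, fibroblast and enterocyte lists moved with the treated knockout arrays in all of these genes, and their part was not tested.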

How the results depend on the processing

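The counts of members called moved with several choices. The share of all genes called is not given for most of these choices, so the counts have no background beside them. In wild type mice 4 members (Orc1, Rfc3, Fen1 and Birc5) were called with array weights and 0 otherwise. In knockout mice the count of 8 became 4 with a log2 fold minimum of 1, 13 with array weights, and 5 to 12 without 1 array. It became 6 with arrays centred on their median and 6 with a fit of only the groups compared. Mcm3, Mcm4, Ccne1, Orc6 and Chaf1b were called in all 21 alternatives other than the fold minimum. Cdk1, Mcm5 and Mcm7 were called in 18, 16 and 12 of these 21. In treated mice the count of 5 became 1 with the fold minimum and 2 with arrays centred on their median. It became 1 with a fit of only the groups compared and 1 to 7 without 1 array. Without replicate 1 of the treated knockout, 3 of the 7 were higher and 4 lower. Orc6 was called in all 21. The interaction count of 0 became 1 (Mcm3) with dim genes left out and with the pancreatic RNA block, 5 with array weights, and 0 to 3 without 1 array. With the replicate block 8 members were called in knockout mice, 5 in treated mice and 0 in the other comparisons. Deviations correlated at -0.49 to 0.67 for same-numbered arrays and at -0.65 to 0.58 for differently numbered ones. The numbers are not shown to pair mice. Averaging probe sets moved the mean of the members in untreated wild type from 6.41 to 6.24, since the second probe sets of Fen1, Kif11 and Top2a are dim. Of 2725 values of named genes under an alternative, 2593 stayed on their side of the threshold, 109 lost and 23 gained a call, and 0 changed sign while called. Where the values do not show it, the cause was not tested.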
